A study of Arabidopsis thaliana with 4 samples.

Results

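The mitochondrial genome of Arabidopsis thaliana was represented here by 18 probe sets of 11 genes, among 22810 probe sets on the array. They were the probe sets whose only annotated gene symbol was cob, matR or mttB or was spelled as nad, cox, atp, orf or ATMG with a number or as ccm with B, C or F. The choice was made by symbol. A further 5 probe sets with 1 symbol spelled otherwise are not among the 18. They read orfX and 4 ccb genes, which act in cytochrome c maturation. The choice gave nad1 on 7 probe sets, nad5 on 2, and nad2, nad4, nad4L, nad6, nad7, nad9, cox1, cox2 and matR on 1 each. No cob, ccm, atp or mttB probe set and 0 open reading frame probe sets met it, so the respiratory chain genes could not be set against open reading frames of unknown function. All 11 symbols belong to genes of the mitochondrial chromosome (MT) in the RefSeq assembly TAIR10.1. The genome build behind the probe sets is not given in the sources used here, and no coordinates are printed.

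DTT discs came from full-grown source leaves of wild type Col-0 and were kept for 1 h in the dark in 2 mM MES buffer, pH 6.5, containing 5 mM dithiothreitol (DTT), a membrane-permeant thiol reductant. Control discs were kept in the same buffer without DTT. All plants were non-flowering rosettes grown with 14 h days and 10 h nights, and discs were cut when the night ended. Each group had 2 arrays described as biological replicates, and the comparison asked how the redox state of the cells affects gene expression.

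Plant mitochondria keep a small genome that encodes a minority of the respiratory chain subunits, and the nucleus encodes the rest. Complex I passes electrons from NADH to ubiquinone, and complex IV, cytochrome c oxidase, passes them from cytochrome c to oxygen. The nad1, nad2 and nad5 transcripts of flowering plants are pieced together from separately transcribed parts by trans-splicing, whereas nad4, nad7 and cox2 in Arabidopsis carry introns within 1 transcript. In plant mitochondria a poly(A) tail marks RNA for breakdown, and how the RNA was primed for labelling is not given in the sources used here.

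The values are MAS5 signals as the authors deposited them, with a trimmed mean of 100.01 on every array and array medians from 25.4 to 32.8. Probe sets with a mean log2 signal under 4.08, a signal of 16.9, were not tested. Of the 18 probe sets, 10 passed this filter and 8 did not. The nearest to the level were nad1 probe sets, 257329_at just above it with a mean log2 signal of 4.16 and 257323_at below it with 3.38. The deposited table holds no detection calls, so whether a low signal differs from background is not known. Of 7 mesophyll markers listed for a check of the tissue, 1 had a probe set of its own. This was RCA, the activase of Rubisco, with signals of 3808.7 and 2999.4 in DTT discs and 4077.4 and 2751.6 in control discs.

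In limma's test without a replicate block, 0 of the 10 mitochondrial probe sets tested passed an adjusted p of 0.05. Over the whole array the same test called 0% of 13648 probe sets. At an unadjusted p under 0.05 it gave 0 of the 10 and 95 of the 13648, or 0.696%. The limma adjusted p was 0.9999 for each of the 10. With replicate number as a block limma called 0.923% of the 13648, and again 0 of the 10. On simulated data with the replicate gaps of these arrays, the fit without the block recovered none of the changes put in, and the fit with it recovered part of the smaller and nearly all of the larger ones. The test without the block called 0% of the whole array, so its absence of calls does not show whether a member changed. The simulated arrays of one replicate number shared a gap, as the block assumes, although the labels tie no such arrays together. Noise was added on top of the measured gaps, which already hold noise, so the simulated gaps tended to be larger than the measured ones. The simulation was thus harder on the fit without the block than these arrays are. Recovery was counted over all tested probe sets, not over the members, so the 0 member calls with the block do not settle it either. An exact permutation test of 2 arrays against 2 cannot go below p = 0.333, and none was used. The mitochondrial values below are therefore descriptions of the 4 arrays, and where a signal is called lower or higher, that is the measured value and not a change that passed a test. The number of arrays limits their precision.

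Over all 18 probe sets the median log2 change, DTT minus control, was -0.48, against -0.048 over the 22746 probe sets that are not array controls. It was -0.27 for the 10 that passed the filter, where all tested probe sets had -0.0075, and -1.06 for the 8 below it, where all probe sets below it had -0.20. Within replicate 1 the median over the 18 was -0.54, against -0.099 for those probe sets, and within replicate 2 it was -0.37, against 0.00. The signal was lower in DTT discs in both replicates for 11 of the 18, which is 61.1%, where 28.9% of all probe sets were. Of these 11, 5 read nad1 and 2 read nad5, so they are not separate genes. With only the brightest probe set of each of the 11 genes, the median log2 change was -0.42. Of those 11 genes 7 had a mean change below 0, where 55.2% of all probe sets did. It was higher in both for 3 of the 18, where 20.6% of all probe sets were. The median depended on single arrays: without DTT 2 it was 0.094 and without control 1 it was 0.023, whereas without DTT 1 it was -1.03 and without control 2 it was -0.998. Leaving out an array sets replicate 1 partly against replicate 2, and the median gap between these was larger than the median change between groups, as described further on. With 16 added to each signal before the logarithm the median was -0.22, and with 64 added it was -0.078, since many of these signals are low. These medians were not tested. In bulk tissue, fewer mitochondria and less RNA in each cannot be told apart.

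**Figure D1:**
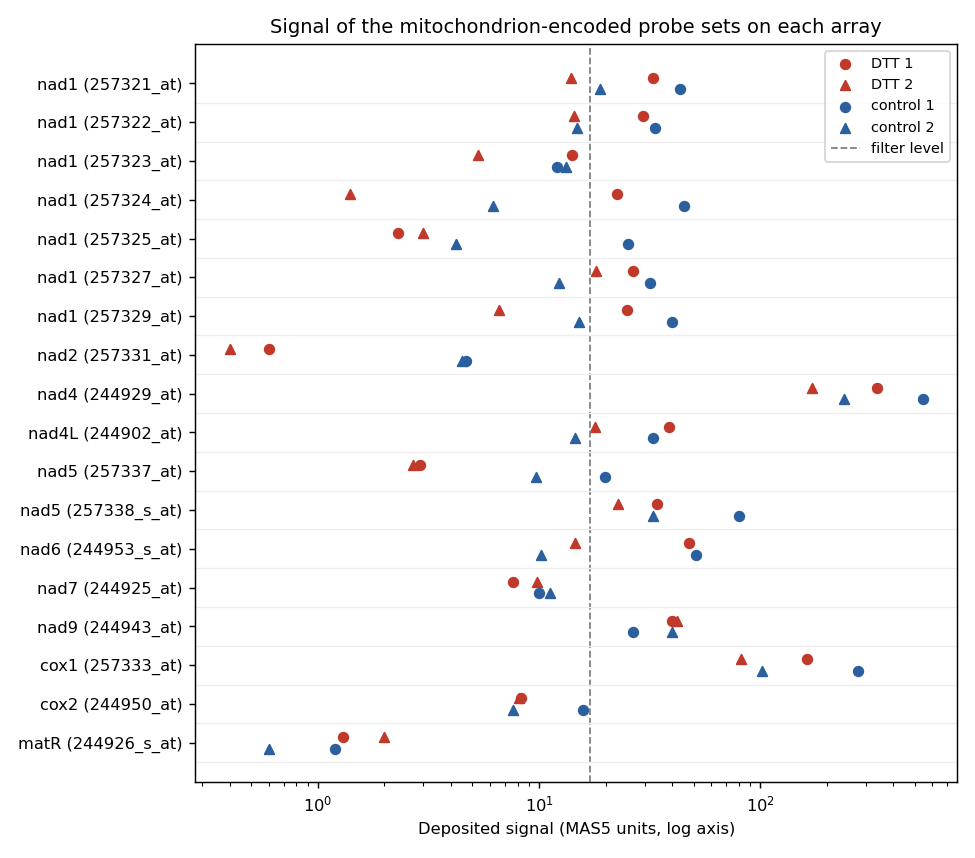
Deposited signal (log axis) of the 18 mitochondrion-encoded probe sets on each array, with DTT arrays in red drawn above control arrays in blue, circles for replicate 1 and triangles for replicate 2. The dashed line is the filter level of 16.9; nad4, nad9, cox1 and nad5 257338_s_at lie to its right on all 4 arrays, and nad2, nad7, cox2, matR and nad1 257323_at to its left on all 4.

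nad4, nad2 and nad5 encode related subunits of the membrane arm of complex I, the part that moves protons. The nad4 signal was 338.8 and 171.3 in DTT discs, against 543.2 and 238.9 in control discs. The means were 255 ± 118 in DTT discs and 391 ± 215 in control discs (SD, n = 2 each). The log2 change was -0.58 (SE 0.55), with -0.68 in replicate 1 and -0.48 in replicate 2. DTT 1 lay between the controls, so the groups overlapped, although the DTT array was the lower one within each replicate.

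The nad5 gene was read by 2 probe sets. On 257338_s_at the signal was 34.1 and 22.7 in DTT discs, against 80.5 and 32.7 in control discs. Its log2 change was -0.88 (SE 0.54), the lowest unadjusted limma p of the 10 tested probe sets (0.157), with -1.24 in replicate 1 and -0.53 in replicate 2. DTT 1 lay slightly above control 2, so the groups overlapped narrowly. On 257337_at the signal was 2.9 and 2.7 in DTT discs, against 19.8 and 9.7 in control discs. Here the DTT arrays lay below both control arrays, and the log2 change was -2.77 for replicate 1 and -1.85 for replicate 2. Only control 1 exceeded the filter level on this probe set, so its fold is that of a signal close to the bottom of the scale. Both nad5 probe sets thus had a lower signal in DTT discs in each replicate.

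nad2 had signals of 0.6 and 0.4 in DTT discs, against 4.7 and 4.5 in control discs. The groups did not overlap, and the log2 changes of -2.97 and -3.49 in replicates 1 and 2 gave it the lowest mean of the 18, -3.23. All 4 signals lay below the filter level, and nad2 was not tested.

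nad1 encodes another membrane-arm subunit, at the joint with the peripheral arm, and its 7 probe sets did not give 1 answer. On 257321_at the signal was 32.7 and 14.0 in DTT discs, against 43.5 and 18.8 in control discs, with log2 changes of -0.41 and -0.43 in replicates 1 and 2. On 257329_at it was 25.1 and 6.6 in DTT discs, against 40.1 and 15.2 in control discs, with log2 changes of -0.68 and -1.20. On these probe sets the DTT array was the lower one within each replicate, while the groups overlapped because both arrays of replicate 1 were the brighter ones. On 257322_at the difference was small, with 29.6 and 14.4 in DTT discs against 33.5 and 14.9 in control discs. On 257327_at the replicates went opposite ways, with 26.6 and 18.1 in DTT discs against 31.9 and 12.3 in control discs. The SE of these 4 log2 changes was between 0.58 and 0.81, larger than the change on 3 of them; on 257329_at the change of -0.94 stood against an SE of 0.81.

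The other 3 nad1 probe sets lay below the filter. On 257324_at the signal was 22.6 and 1.4 in DTT discs, against 45.1 and 6.2 in control discs. On 257325_at it was 2.3 and 3.0 in DTT discs, against 25.3 and 4.2 in control discs, so that both DTT arrays lay below both controls and control 1 alone was above the filter level. On 257323_at it was 14.1 and 5.3 in DTT discs, against 12.0 and 13.2 in control discs. Across the 7 nad1 probe sets the change in replicate 1 ran from -3.46 to 0.23 and in replicate 2 from -2.15 to 0.56, with medians of -0.41 and -0.49. The mean change was below 0 on 6 of the 7.

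nad4L and nad6, the remaining membrane-arm genes, did not share the lower signal. nad4L had 38.6 and 17.9 in DTT discs, against 32.7 and 14.6 in control discs, with log2 changes of 0.24 and 0.29 in replicates 1 and 2 (SE of the mean change 0.60). nad6 had 47.5 and 14.5 in DTT discs, against 51.5 and 10.2 in control discs, with log2 changes of -0.12 and 0.51. For both genes the arrays of replicate 1 were the brighter ones in both groups, and the groups overlapped.

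nad7 and nad9 encode subunits of the peripheral arm, which reaches into the matrix and carries electrons. nad9 had the highest positive mean change of the 10 tested probe sets, 0.33 (SE 0.37), with signals of 39.9 and 42.0 in DTT discs against 26.5 and 40 in control discs. The difference came from control 1: the other 3 arrays lay within 39.9 to 42.0. nad7 had 7.6 and 9.8 in DTT discs, against 10.0 and 11.2 in control discs. Both nad7 DTT signals lay below both controls, by log2 changes of -0.40 and -0.19 in replicates 1 and 2, and all 4 signals were below the filter level.

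cox1 encodes the catalytic subunit of complex IV, and cox2 the subunit that takes electrons from cytochrome c. cox1 had 162.7 and 81.9 in DTT discs, against 276.9 and 101.5 in control discs. The means were 122 ± 57.1 in DTT discs and 189 ± 124 in control discs (SD, n = 2 each), and the log2 change was -0.54 (SE 0.61), with -0.77 in replicate 1 and -0.31 in replicate 2. As with nad4, DTT 1 lay between the controls. cox2 had 8.3 and 8.1 in DTT discs, against 15.8 and 7.6 in control discs, so only control 1 stood apart, and all 4 signals were below the filter level.

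matR encodes a maturase that acts in group II intron splicing, and it was the only gene outside the respiratory chain. Its signals were 1.3 and 2.0 in DTT discs, against 1.2 and 0.6 in control discs. Both DTT arrays lay above both control arrays, at the bottom of the signal scale. Without matR the median log2 change of the 17 respiratory chain probe sets was -0.54, with -0.68 in replicate 1 and -0.43 in replicate 2.

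**Figure D2:**
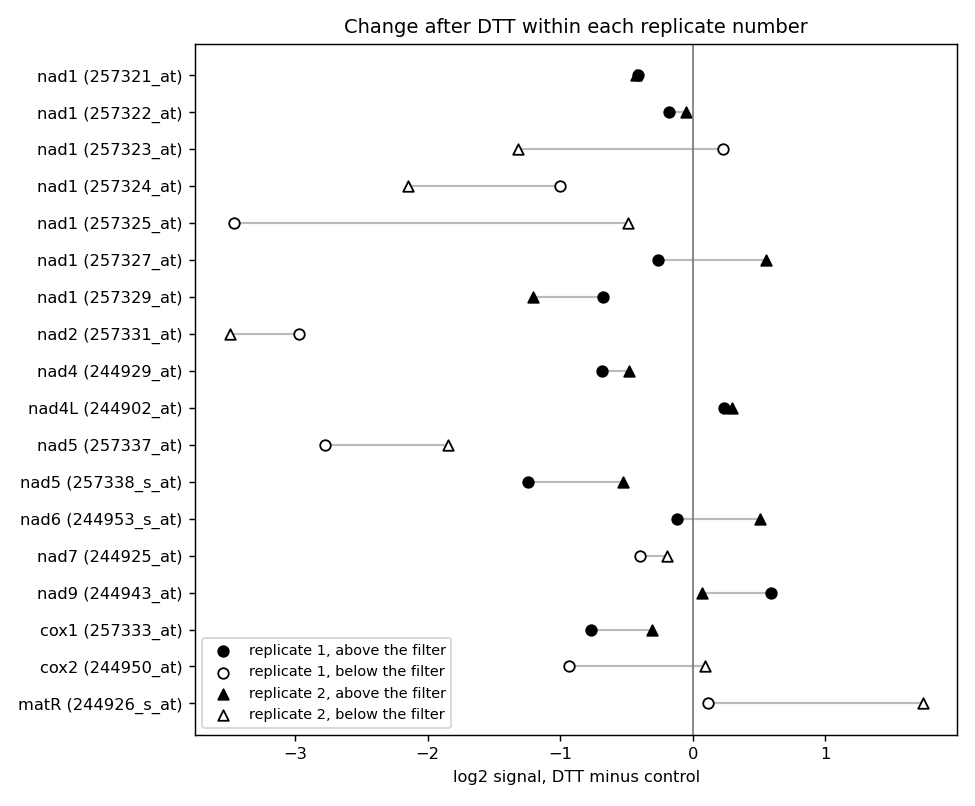
Log2 signal, DTT minus control, of each mitochondrion-encoded probe set within replicate 1 (circles) and replicate 2 (triangles), filled where the probe set passed the filter on low signals and open where it did not. Filled points lie between -1.24 and 0.59, and the points beyond -1.5 are open ones of nad1, nad2 and nad5.

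Among the members, DTT and control arrays separated only on probe sets of low signal. Both DTT arrays lay below both control arrays for 4 of the 18 probe sets, which is 22.2%, where 12.4% of all probe sets did. These were nad2, nad7, nad5 257337_at and nad1 257325_at, all 4 of them below the filter. Among the 8 members below the filter they were 50%, where 16.3% of the 9098 probe sets below the filter did so. Of the 10 members that passed the filter it was 0, where 9.81% of the tested probe sets did so. Both DTT arrays lay above both controls for matR alone, where 7.68% of all probe sets did. For the 10 tested members, DTT and control signals overlapped in every case.

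Grouped by how their transcripts are spliced, the members differed in direction. This grouping was made after the values had been seen and was not tested. Of the 10 probe sets of the trans-spliced genes nad1, nad2 and nad5, 9 had a mean change below 0, with a median of -0.91. Of the 3 with introns in 1 transcript, nad4, nad7 and cox2, all 3 did, with a median of -0.42. Of the 5 of genes without introns, nad4L, nad6, nad9, cox1 and matR, 1 did (cox1), with a median of 0.27. Over all probe sets 55.2% had a mean change below 0. The trans-spliced group holds 7 probe sets of 1 gene, and 5 of its 10 lay below the filter, as did 2 of the 3 with introns in 1 transcript and 1 of the 5 without introns. What part of a transcript each probe set reads, before or after splicing, is not given in the sources used here.

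Over the 18 probe sets the replicates differed by more than the groups did, compared by medians. The median log2 gap between replicates was 0.79 for the DTT arrays and 1.18 for the control arrays. The median change between groups was -0.54 in replicate 1 and -0.37 in replicate 2. The replicate 1 array was brighter than the replicate 2 array in both groups for 13 of the 18 probe sets, or 72.2%, where 41.4% of all probe sets were. Among the 69 plastid-encoded probe sets it was brighter in both groups for 57, or 82.6%. The median ratio of replicate 1 to replicate 2 over the 18 was 1.72 between the DTT arrays and 2.26 between the control arrays, against 1.04 and 1.14 over all probe sets. For the 10 tested members it was 2.02 and 2.39, against 1.07 and 1.10 over the probe sets tested. The mean of the 2 absolute replicate gaps exceeded the absolute mean change for all 10 tested members and 13 of all 18. It did so for 82.0% of all probe sets tested. In this count opposite signs cancel in the change and not in the replicate gap, which favours the replicate gap. nad6 is an example, with 47.5 and 51.5 on the DTT and control arrays of replicate 1 and 14.5 and 10.2 on those of replicate 2. The peripheral-arm genes ran the other way: nad7 and nad9 were lower in replicate 1 than in replicate 2 in both groups, by log2 0.37 and 0.074 in DTT discs and 0.16 and 0.59 in control discs.

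The array's control probe set for 25S ribosomal RNA had 847.8 and 24.4 on the DTT arrays, against 2525.6 and 100.5 on the control arrays. It was thus higher in replicate 1 in both groups and lower after DTT within each replicate, as nad4, cox1 and nad5 were. The 5S ribosomal RNA probe set had 399.2 and 1.0 on the DTT arrays, against 452.4 and 7.0 on the control arrays. The actin, GAPDH and ubiquitin controls were mixed. Actin_5_r_at had the directions of 25S, with replicate gaps of log2 0.81 between the DTT arrays and 0.38 between the control arrays. Those gaps were 0.22 and -0.86 for GAPDH_5_s_at, and 0.61 and -0.35 for Actin_M_at. Ubq_3_f_at had 0.46 and 0.90, but changes after DTT of log2 -0.28 and 0.17 in replicates 1 and 2. The spike-in controls bioB and bioC, bacterial transcripts that are not part of the leaf RNA, were brighter in replicate 1 in both groups on all 10 of their probe sets, by log2 0.55 to 1.43 between the DTT arrays and 0.76 to 1.64 between the control arrays. Between DTT and control their median log2 change was 0.0068, with a range from -0.34 to 0.27. The spike-in cre was brighter in replicate 1 in both groups on all 4 of its probe sets. Its median gap was log2 0.64 between the DTT arrays and 0.77 between the control arrays. For the spike-in bioD this held on 2 of 4 probe sets, with median gaps of log2 0.15 and 0.15. The median gap of the 18 mitochondrial probe sets, log2 0.79 between the DTT arrays and 1.18 between the control arrays, lay within those ranges of bioB and bioC. It was above the largest bioD gaps, log2 0.54 between the DTT arrays and 0.58 between the control arrays. The part of these controls in the mitochondrial values was not tested.

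**Figure D3:**
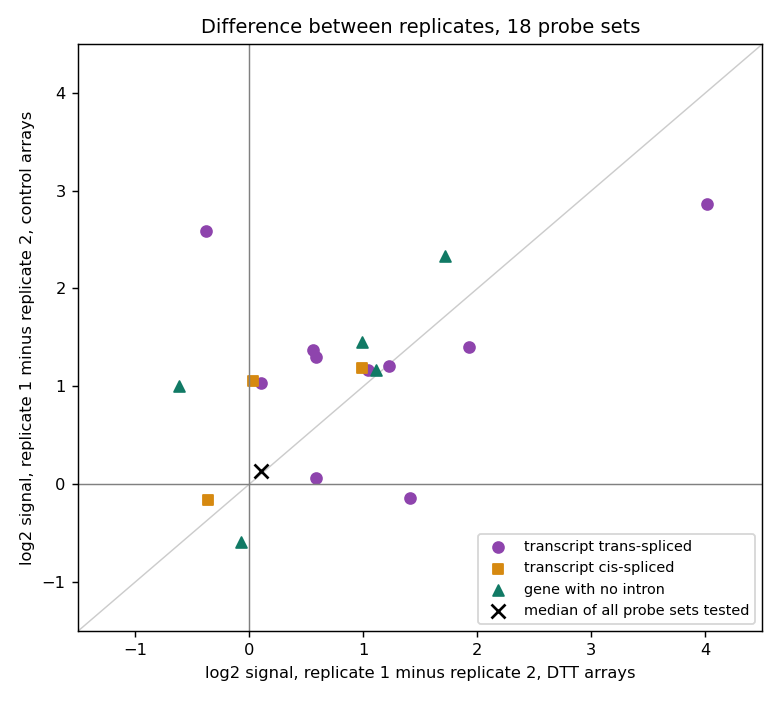
Difference in log2 signal between replicate 1 and replicate 2, in DTT discs (horizontal axis) and in control discs (vertical axis), for the 18 mitochondrion-encoded probe sets, coloured by how the transcript is spliced. Most points lie above and to the right of 0, where replicate 1 was brighter in both groups, and the cross marks the medians of all probe sets tested, 0.10 in DTT discs and 0.14 in control discs.

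The nuclear partners of these genes were followed through lists of loci. Of 112 genes in 8 lists for the respiratory chain, alternative respiratory enzymes, cytochrome c maturation and mitochondrial gene expression, 57 were read by probe sets of no other gene. Of these 58 probe sets 52 were tested, and limma called 0 higher and 0 lower without the block, with 1 at an unadjusted p under 0.05. That 1 was AT5G25450, a subunit of complex III, with 168.8 and 64.6 in DTT discs against 460.3 and 254.3 in control discs. Its log2 change was -1.71 (SE 0.58, limma adjusted p = 0.9999), and its groups did not overlap. With replicate number as a block limma called it lower in DTT discs (adjusted p = 1.09e-04), the 1 call among the 52.

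Nuclear subunits of complex I had mostly positive changes, while most mitochondrial nad probe sets had negative ones. Of 17 measured, 16 had a mean change above 0, where 48.9% of all tested probe sets did. The signal was higher in both replicates for 9 of the 17, where 3316 of the 13648 tested probe sets were, and 7 were lower in replicate 1. Their median log2 change was 0.16 (0.065 and 0.28 within replicates 1 and 2), and 0 of the 17 passed the test. AT2G31490 had 338.5 and 371.3 in DTT discs, against 251.4 and 316.0 in control discs, a log2 change of 0.33 (SE 0.32). AT2G47690 was the exception, with 81.0 and 87.3 in DTT discs, against 109.5 and 100.7 in control discs, a log2 change of -0.32 (SE 0.31). Of the 15 mitochondrial nad probe sets, 7 of which read nad1, 11 had a mean change below 0, where 55.2% of all probe sets did. Only 9 of these 15 passed the filter, against all 17 of the nuclear ones. Of the 10 members that passed it, these 9 and cox1, 6 had a mean change below 0 and 4 above. Among all tested probe sets 6973 of 13648 had a mean change below 0, so 6 of 10 is near the share of the array. Of the 8 members below the filter, 7 had a mean change below 0, where 5592 of all 9098 probe sets below it did. The difference between the nuclear and mitochondrial sets was not tested.

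The other lists had smaller medians or few tested probe sets. The median log2 changes were 0.059 for the 3 tested probe sets of complex II, 0.018 for the 13 of complex III and cytochrome c, 0.051 for the 7 of complex IV, 0.14 for the 5 of complex V, 0.091 for the 4 of alternative enzymes and -0.12 for the 2 of mitochondrial gene expression and genome upkeep. CYTC-2, a cytochrome c, had a log2 change of 0.33. Among complex V genes AT2G19680 had 0.42 and AT4G26210 had 0.15, and among complex IV genes AT5G57815 had 0.20 and AT3G15640 had -0.25. SDH1-1 and SDH2-1, of succinate dehydrogenase, had 0.17 and 0.059. NDB2 and NDB1, alternative NAD(P)H dehydrogenases of the inner membrane, had 0.43 and -0.11. CCMH, of cytochrome c maturation, had -0.46, and OSB1, a DNA-binding protein that acts in upkeep of the mitochondrial genome, had -0.36. AT5G46920, a maturase for mitochondrial introns, had 0.13. The limma adjusted p of each was 0.9999.

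**Figure D4:**
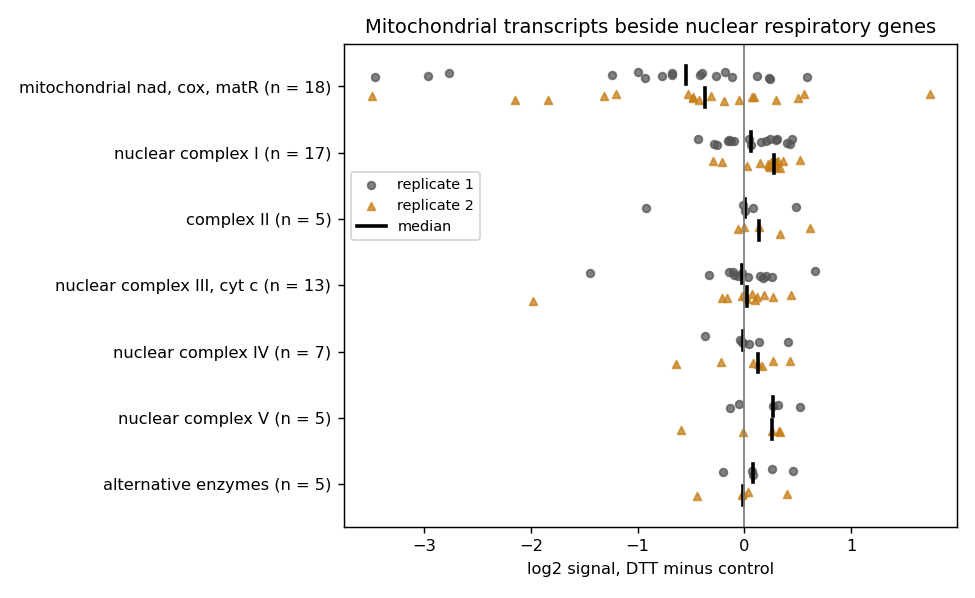
Log2 signal, DTT minus control, within replicate 1 (circles) and replicate 2 (triangles), for the 18 mitochondrion-encoded probe sets and for nuclear respiratory genes, with a bar at each median. The mitochondrial medians are -0.54 and -0.37, and those of nuclear complex I are 0.065 and 0.28.

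The plastid genome encodes a related complex, NDH. Its 10 ndh probe sets gave a median change of -0.22 on the log2 scale (-0.21 and -0.36 within replicates 1 and 2), and 8 of the 10 had a mean change below 0. They were also brighter in replicate 1, by a median log2 of 1.17 in DTT discs and 0.78 in control discs. Neither difference from the mitochondrial nad genes was tested. Of all 69 plastid-encoded probe sets, 52 had a mean change below 0, with a median log2 change of -0.18.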

How the data were processed

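Total RNA (10 µg) was biotin-labelled and hybridized to 4 Affymetrix arrays, per the labels' protocols. The authors deposited 1 linear intensity (MAS5 signal, per the submitters' processing notes) per probe set; its version and settings were not given in any source used here. Each array has been scaled to one level, so a change of total RNA cannot be seen.

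Groups and replicate numbers came from sample titles. Signals of 0 were set to 0.1 and log2 was taken. Of 22746 probe sets other than 64 array controls, 13648 at or above the 40th percentile of the mean log2 signal were fitted with lmFit and eBayes with a variance trend (limma 3.58.1, R 4.3.3), with Benjamini-Hochberg adjustment over all of them; the fit was tested on simulated data, where only the fit with a replicate block made calls. Plots were made with matplotlib 3.10.9 under Python 3.11.15. Genes came from the platform annotation: 13513 probe sets had 1 gene, 503 several and 8730 none. Named were the 2 members of highest mean signal per role, those with the largest changes and those passing the test, which with 18 members came to all, and up to 2 nuclear genes per list by smallest p. Members and lists were chosen with earlier results of these data known. Of the epidermis, phloem and xylem markers 0 had a probe set; of guard cell and trichome markers FMA, SPCH and TRY did, with log2 changes of 0.068, 0.32 and -0.24. Alternatives were quantile normalization, median centring, log2 of the signal plus 16 or plus 64, dropping the filter or raising it to the 60th percentile, eBayes without the trend or with robust settings, a replicate block, each array left out, probe sets ending in _at only and 1 probe set per gene.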

Additional observations from a re-analysis of the deposited data

Results flagged for a closer look

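The probe set that the annotation assigns to both atp9, a membrane subunit of the mitochondrial ATP synthase, and the nuclear locus AT2G07671 lay outside the comparison, because 2 genes are annotated to it. Its signals were 164.9 and 114.2 in DTT discs, against 111.8 and 98.8 in control discs, a log2 change of 0.38. Both DTT arrays were above both control arrays, which 7.68% of all probe sets showed.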

How the results depend on the processing

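In 13 of the 18 alternatives limma called no probe set of the whole array, so that 0 called members there says nothing about stability. In the other 5, all but 1 of them with the replicate block, it also called 0 of the members tested. None of the 10 tested members changed direction except where an array was left out. Of the other alternatives, only quantile normalization, median centring and an added 16 or 64 can alter a member's log2 change. The rest leave it as it was, so its direction could not change there. Nothing in the labels ties arrays of one number to each other; across tested probe sets the deviations of same-numbered arrays correlated at 0.746. The limma fit with the replicate block called 126 probe sets, or 0.923%, with AT5G25450 (adjusted p = 1.09e-04) among them and 0 members. In that fit 4 of the 10 members had an unadjusted p under 0.05, as did 1092 of all 13648 probe sets tested. The lowest adjusted limma p of a member was 0.195, for nad5 257338_s_at. Joined with the block after the data were seen, no filter gave 3 calls, an added 16 gave 42 and quantile normalization 72; the cause was not tested. The median over the 18 was -0.22 with 16 added, with or without the block, and -0.078 with 64 added; over the 17 it was -0.25 and -0.089. Without single arrays the calls numbered 0 to 3 (3 without DTT 1), the median over the 18 ran from -1.03 to 0.094 and over the 17 from -1.03 to 0.024. In such fits the lone array is assumed to vary like the other group. The log2 change then ran from -0.32 to 0.85 for nad4L, from -1.17 to 0.012 for nad4, from -0.97 to 1.36 for nad6, from -1.26 to 0.19 for cox1, and on nad1 from -1.03 to 0.19 (257321_at), -0.70 to 0.47 (257322_at), -0.54 to 0.84 (257327_at) and -1.90 to 0.024 (257329_at). nad5 257338_s_at stayed below 0 and nad9 above 0. The median over open reading frames and its difference from the respiratory chain had no value, since there were no such members. Taking roles from RefSeq gene names was not run, since the gene table used here holds symbols only.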

Other observations

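Further probe sets of mitochondrial genes fell outside the choice of members and were described after their values had been seen. A large copy of the mitochondrial genome lies in nuclear chromosome 2 of Col-0, and 11 probe sets are annotated to both a mitochondrial gene and a locus of that chromosome. Of these, 7 had a lower signal in DTT discs in both replicates, where 28.9% of all probe sets did. Their median log2 change was -0.51 for replicate 1 and -0.15 for replicate 2, against -0.099 and 0.00 over all probe sets. atp1, the alpha subunit of the ATP synthase, had 231.8 and 178.8 in DTT discs, against 330.0 and 340.2 in control discs. Both DTT arrays lay below both controls for 3 of the 11, atp1, rpl2 and rps7, the last pair encoding ribosomal proteins, where 12.4% of all probe sets did. They lay above both controls for 1 of the 11, atp9, where 7.68% did. cob, the cytochrome b of complex III, had 46.2 and 12.1 in DTT discs, against 69.9 and 8.2 in control discs, and cox3 had 50.5 and 23.6 in DTT discs, against 74.4 and 26.1 in control discs.

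The probe set annotated to both rps3 and rpl16, which are neighbours among the MT genes of the RefSeq table, had 359.0 and 220.8 in DTT discs, against 573.2 and 329.8 in control discs. Its log2 changes, -0.68 and -0.58 for replicates 1 and 2, stand beside -0.68 and -0.48 for nad4. Of the 4 ccb genes, which act in cytochrome c maturation, ccb382 had 124.8 and 63.7 in DTT discs, against 133.3 and 136.9 in control discs, and ccb452 had 154.1 and 190.7 in DTT discs, against 186.9 and 145.5 in control discs. ccb206 was lower in DTT discs in both replicates (log2 -0.27 and -0.53). ccb203 had log2 changes of -0.66 and 2.09, and the mitochondrial gene orfX had -0.59 and 0.26.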
